A study of Rattus norvegicus with 10 samples.

Results

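Iron handling was examined through 9 genes in nucleus pulposus cells of the rat, the cell type that fills the soft centre of a spinal disc. The genes were Ftl1, Fth1, Tfrc, Slc40a1, Slc11a2, Hmox1, Aco1, Ireb2 and Ncoa4, each found by its symbol in the platform annotation and each measured by 1 probeset, so they make up 9 of the 15037 named genes and 9 of the 23188 probesets tested. They were put together with results of the same comparison already known, so their differences between the groups, and whether each passed the threshold of the fit over all probesets, are given as a description, and no p-value of theirs is printed. The tested cells (ShBNIP3) carried a lentivirus with a short hairpin RNA against Bnip3, and the others (ShCtrl) carried a control hairpin in the pLKO.1 vector. Both were cells of male Sprague Dawley rats, 3 to 4 months old per the series text, cultured and collected for RNA 4 days after transduction. There were 5 arrays of each, numbered here as in their titles (6 to 10 for ShBNIP3 and 1 to 5 for ShCtrl). The labels give no hairpin sequence and do not say whether the arrays came from separate cultures or animals, or whether animals were pooled, and the p-values therefore cover no more than the array-to-array spread seen here, part of which may be technical.

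Cells take up iron bound to transferrin through the transferrin receptor (Tfrc), and the divalent metal transporter (Slc11a2) carries it out of the endosome into the cytosol. Surplus iron is stored inside ferritin, a hollow shell built of heavy chains (Fth1), which oxidise iron, and light chains (Ftl1), which help it to form a mineral core, and the receptor Ncoa4 brings ferritin to the lysosome when iron is needed. Ferroportin (Slc40a1) exports iron, haem oxygenase 1 (Hmox1) frees it from haem, and the iron regulatory proteins Aco1 (IRP1) and Ireb2 (IRP2) bind hairpins called iron-responsive elements in the messages for ferritin, Tfrc, Slc11a2 and ferroportin. When iron is scarce this binding stabilises the Tfrc message and blocks the translation of ferritin, and an array measures messages, not translation.

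Levels are the log2 values that the authors normalized, and levels of different genes are not compared because each probeset has its own brightness. Array medians lay between 6.18 and 6.22. The background level of an array, the 95th percentile of its 23 background probesets, was 6.78 at most. Arrays correlated with the others of their group at a mean Pearson r of 0.992 or above over all probesets, except ShBNIP3 array 10 (0.986) and ShCtrl array 4 (0.983). Bnip3 itself was at 10.59 to 12.68 in ShBNIP3 and 13.94 to 15.97 in ShCtrl, a log2 difference of -3.21 (SE 0.41, n = 5 each, limma adjusted p = 0.00020, exact two-sided permutation p = 0.00794, the smallest that this design allows). Array 10 had the highest Bnip3 level of the ShBNIP3 arrays and array 4 the highest of the ShCtrl arrays. Of 10 measured markers of nucleus pulposus cells, Acan, Col2a1 and Car3 were the 3 above background on all 10 arrays. The keratins Krt8, Krt18 and Krt19 and the notochord factor Tbxt were above it on 0 arrays. Cdh2 was above it on 5 ShBNIP3 and 0 ShCtrl arrays, and Col2a1 and Car3 were lower in ShBNIP3, as given below. Col1a1, a fibroblast and annulus gene, averaged 18.12 in ShBNIP3 and 18.52 in ShCtrl. In such bulk samples fewer cells of a type and less RNA per cell cannot be told apart.

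Of the 9 genes, 6 passed an adjusted p of 0.05 in the fit over all probesets, where 15.5% of probesets passed. Tfrc, Ireb2, Slc11a2 and Ncoa4 were the 4 higher in ShBNIP3, where 7.61% of probesets passed in that direction, and Ftl1 and Hmox1 the 2 lower, where 7.87% did. Fth1, Aco1 and Slc40a1 did not pass. The groups did not overlap for 5 of the 9, against 12.9% of all probesets: 3 were higher in ShBNIP3 (6.6% of all probesets) and 2 lower (6.29%). The genes higher in ShBNIP3 thus included 2 that bring iron in, 1 that delivers ferritin to the lysosome and 1 regulatory protein, and those lower included 1 of the 2 ferritin chains and the enzyme of haem breakdown. Since the genes were chosen on this comparison, these counts are not evidence about iron handling as a class.

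**Figure D1:**
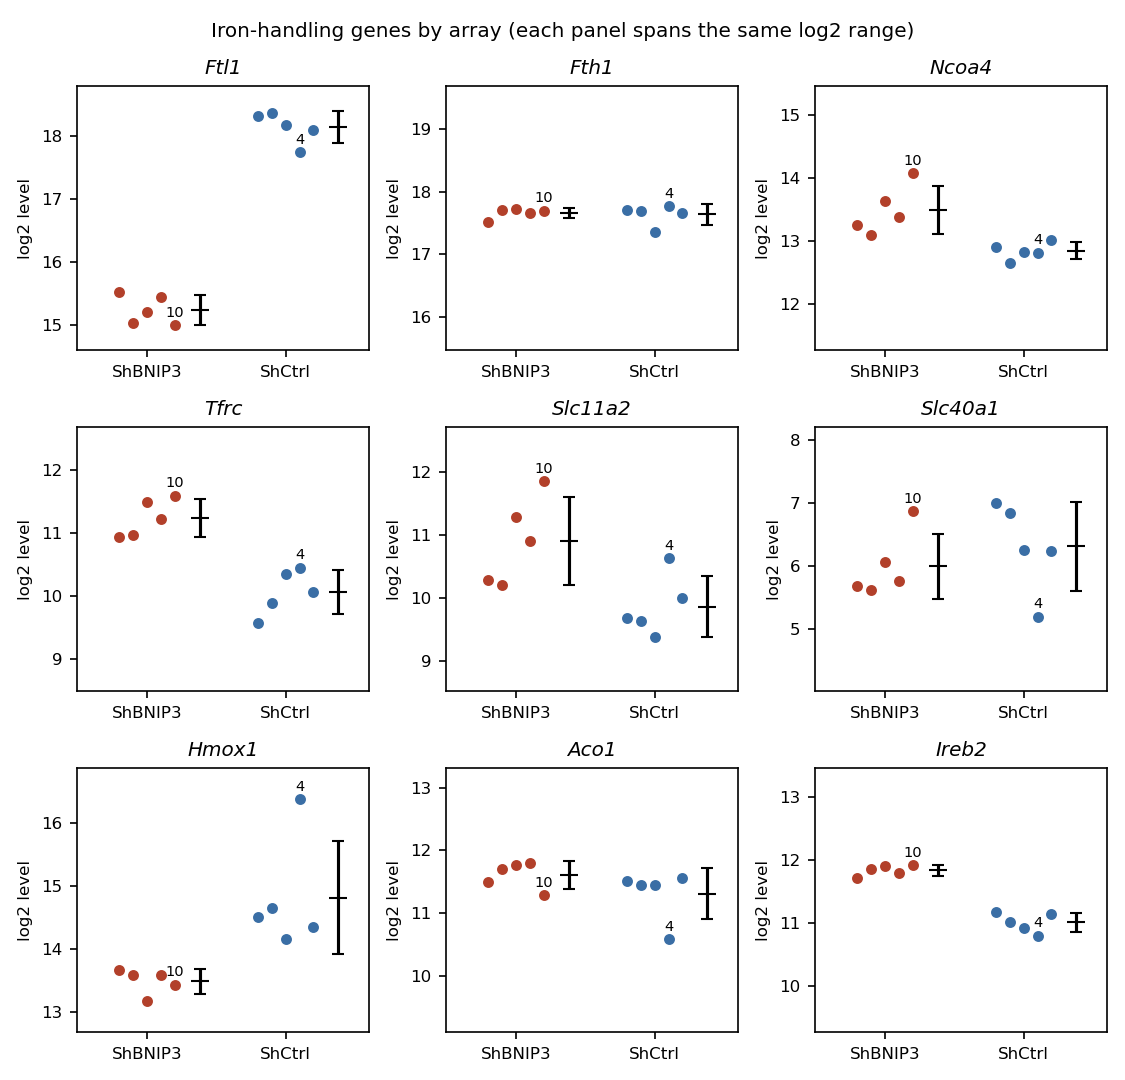
Log2 level (y axis) of each of the 9 genes on the 5 ShBNIP3 arrays (red, left) and the 5 ShCtrl arrays (blue, right); black marks are the mean and SD, and arrays 10 and 4 are numbered. The groups are apart for Ftl1, Hmox1, Tfrc, Ireb2 and Ncoa4, overlap for Slc11a2, Slc40a1, Aco1 and Fth1, and array 4 holds the highest Hmox1 value, 16.38.

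Promoter sequence was at hand in RefSeq's table for 6 of the 9 genes. The 250 bases before the annotated start are shown for the 3 of these that were higher in ShBNIP3 without overlap, so that their starts can be compared. They are Tfrc (GRCr8, chr11:81690319-81690568, minus strand), Ireb2 (GRCr8, chr8:64160838-64161087, plus strand) and Ncoa4 (GRCr8, chr16:7401541-7401790, plus strand). Capitals mark matches on either strand to ACGTG or GCGTG, the cores of hypoxia response elements, to TGACGT, the start of a cAMP response element, or to TGACNNNGC, the core of an antioxidant response element.
Tfrc: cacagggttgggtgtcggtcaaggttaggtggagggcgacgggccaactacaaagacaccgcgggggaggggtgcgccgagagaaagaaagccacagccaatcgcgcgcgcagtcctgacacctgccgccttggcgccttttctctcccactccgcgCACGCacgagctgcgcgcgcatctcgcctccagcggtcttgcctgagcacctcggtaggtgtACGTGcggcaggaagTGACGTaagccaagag
Ireb2: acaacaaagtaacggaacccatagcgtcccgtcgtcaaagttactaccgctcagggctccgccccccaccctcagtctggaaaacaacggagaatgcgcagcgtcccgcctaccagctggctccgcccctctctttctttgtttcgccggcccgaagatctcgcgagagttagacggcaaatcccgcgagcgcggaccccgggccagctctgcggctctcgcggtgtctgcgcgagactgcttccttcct
Ncoa4: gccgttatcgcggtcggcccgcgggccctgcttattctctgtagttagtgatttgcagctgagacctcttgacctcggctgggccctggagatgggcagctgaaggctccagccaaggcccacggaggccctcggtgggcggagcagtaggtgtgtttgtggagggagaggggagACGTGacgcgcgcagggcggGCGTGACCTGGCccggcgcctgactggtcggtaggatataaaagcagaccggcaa
The Tfrc window held ACGTG starting 31 bases before the start, GCGTG on the other strand 93 bases before it and TGACGT 16 bases before it. The Ncoa4 window held ACGTG at 75 bases, GCGTG at 55 bases and TGACNNNGC at 52 bases, and the last 2 of these matches share 2 letters. The Ireb2 window held 0 matches, and 0 of the 3 windows held the E-box CACGTG, which contains ACGTG. Among 33469 RefSeq promoter windows of the same length, 16.6% held ACGTG, 25.9% GCGTG, 6.95% TGACGT, 10.1% TGACNNNGC and 5.59% CACGTG. A match describes letters only. In human cells the TFRC promoter is known as a target of hypoxia-inducible factor, and whether the rat match is bound in these cells was not measured.

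The ferritin chains differed from each other. Ftl1, the light chain, was at 15.52, 15.02, 15.20, 15.44 and 15.00 on ShBNIP3 arrays 6 to 10, and at 18.32, 18.37, 18.18, 17.74 and 18.09 on ShCtrl arrays 1 to 5. Every ShBNIP3 array lay more than 2 log2 units under every ShCtrl array. The difference was -2.90 (SE 0.15), which left 13.4% of the ShCtrl level, and by size it stood 39th among all probesets and 18th among those that passed and fell. With 1 array left out it stayed between -3.00 and -2.85.

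Fth1, the heavy chain, was at 17.51, 17.71, 17.72, 17.65 and 17.70 in ShBNIP3 and at 17.71, 17.69, 17.36, 17.77 and 17.65 in ShCtrl. The groups overlapped, and the difference was 0.022 (SE 0.11). The sign of the Fth1 difference turned to -0.048 without ShCtrl array 3, which had the lowest value.

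The 2 chains have many near copies in the rat genome. The RefSeq table lists 21 other entries whose symbol begins with Ftl1, of which 15 are pseudogenes and 6 protein-coding, and 6 whose symbol begins with Fth1, of which 5 are pseudogenes. No such copy had a named probeset here. The 10 values of Ftl1 were identical to those of 1 unnamed probeset, while the other 8 genes shared their values with 0 probesets. How much of the Ftl1 and Fth1 signal comes from such copies was not tested.

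Ncoa4, the receptor that carries ferritin to the autophagosome, was at 13.25, 13.09, 13.63, 13.38 and 14.07 in ShBNIP3 and at 12.90, 12.64, 12.82, 12.81 and 13.01 in ShCtrl. The groups did not overlap, although the lowest ShBNIP3 and the highest ShCtrl value lay close together, and array 10 was the highest of all. The difference was 0.65 (SE 0.17), a 1.56-fold higher level. The gene did not pass without ShBNIP3 array 8 (0.61) or without ShCtrl array 2 (0.60).

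Of the 2 importers, Tfrc was at 10.94, 10.96, 11.49, 11.21 and 11.59 in ShBNIP3 and at 9.57, 9.89, 10.35, 10.44 and 10.06 in ShCtrl. Each ShBNIP3 value exceeded each ShCtrl value, with a difference of 1.17 (SE 0.19), a 2.26-fold higher level, and between 1.05 and 1.27 with 1 array left out.

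Slc11a2 was at 10.28, 10.20, 11.28, 10.91 and 11.86 in ShBNIP3 and at 9.69, 9.64, 9.37, 10.63 and 10.00 in ShCtrl. The groups overlapped through ShCtrl array 4, which lay above ShBNIP3 arrays 6 and 7. The difference was 1.04 (SE 0.32), a 2.06-fold higher level. It did not pass in 7 of 10 fits with 1 array left out, namely those without ShBNIP3 array 8 (0.95), 9 (1.04) or 10 (0.80) or ShCtrl array 1 (1.00), 2 (0.98), 3 (0.92) or 5 (1.08). The array probeset does not separate the forms of the message with and without an iron-responsive element.

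Slc40a1 was at 5.67, 5.61, 6.05, 5.76 and 6.87 in ShBNIP3 and at 7.00, 6.84, 6.26, 5.19 and 6.24 in ShCtrl. It was above background on 1 of 5 ShBNIP3 arrays and 2 of 5 ShCtrl arrays, so its level was hardly measured. The difference was -0.31 (SE 0.33), and -0.81 without ShBNIP3 array 10 and ShCtrl array 4, the highest and the lowest array of their groups, where it passed.

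Hmox1 was at 13.66, 13.58, 13.17, 13.58 and 13.43 in ShBNIP3 and at 14.51, 14.66, 14.16, 16.38 and 14.34 in ShCtrl. The groups did not overlap, and array 4 stood far above the other ShCtrl arrays. The difference was -1.33 (SE 0.34), which left 39.9% of the ShCtrl level. It did not pass without ShBNIP3 array 8 (-1.25), where it missed the threshold narrowly. It was -0.93 without ShCtrl array 4 and still passed.

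Of the 2 iron regulatory proteins, Ireb2 was at 11.72, 11.86, 11.91, 11.81 and 11.93 in ShBNIP3 and at 11.18, 11.02, 10.92, 10.81 and 11.15 in ShCtrl. The groups were apart, with a difference of 0.83 (SE 0.11), a 1.78-fold higher level. IRP2 is removed by degradation of the protein when iron is plentiful, so its message does not give its activity.

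Aco1, which is a cytosolic aconitase when it holds an iron-sulphur cluster and an RNA-binding protein without it, was at 11.49, 11.70, 11.77, 11.79 and 11.29 in ShBNIP3 and at 11.52, 11.46, 11.45, 10.59 and 11.56 in ShCtrl. The groups overlapped, and array 4 was lowest. The difference was 0.29 (SE 0.19), and 0.11 without array 4.

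**Figure D2:**
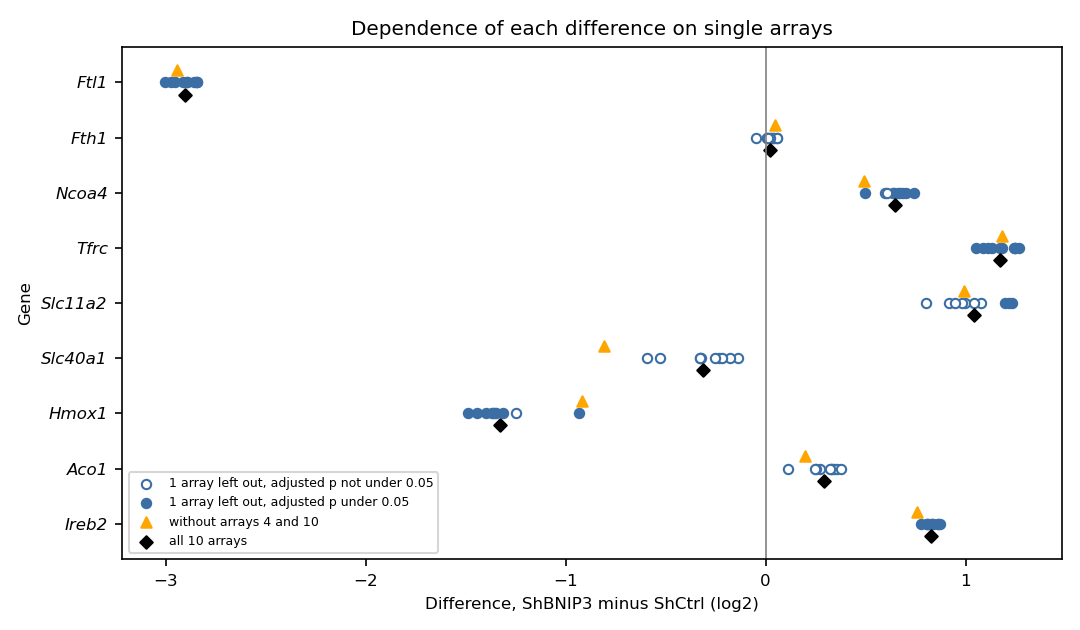
Log2 difference of each of the 9 genes, ShBNIP3 minus ShCtrl (x axis), with all 10 arrays (diamonds), with 1 array left out (circles, filled where the adjusted p was under 0.05) and without arrays 4 and 10 (triangles). Ftl1 stays between -3.00 and -2.85 with 1 array left out, while Slc11a2 has 7 open circles and Slc40a1 passes only in the fit that leaves out both arrays.

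The number of the 9 genes that passed was 3 without ShBNIP3 array 8, where Ftl1, Tfrc and Ireb2 remained, and otherwise 4 to 6 with 1 array left out. Without array 8, 2746 of the 23188 probesets passed, against 3590 with all arrays. A fit with 1 array fewer can miss the threshold with the difference almost unchanged, as for Slc11a2 without ShBNIP3 array 9 (1.041 against 1.042). Without arrays 4 and 10 the number was 7, with 4 higher and 3 lower, and 4622 probesets passed. The third lower gene was Slc40a1, which in that fit was above background on 0 of 4 ShBNIP3 arrays and 2 of 4 ShCtrl arrays. Within the groups the genes did not vary together in 1 direction. On ShBNIP3 array 10, Slc11a2, Slc40a1 and Ncoa4 lay 1.19, 1.09 and 0.73 above the mean of the other 4 ShBNIP3 arrays, and Ftl1 at -0.30 from it. On ShCtrl array 4, Hmox1 lay 1.96 and Slc11a2 0.95 above the other ShCtrl arrays, whereas Slc40a1, Aco1 and Ftl1 lay at -1.40, -0.90 and -0.50 from them. For Ireb2 and Fth1 these deviations stayed between -0.35 and 0.21 on every array.

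**Figure D3:**
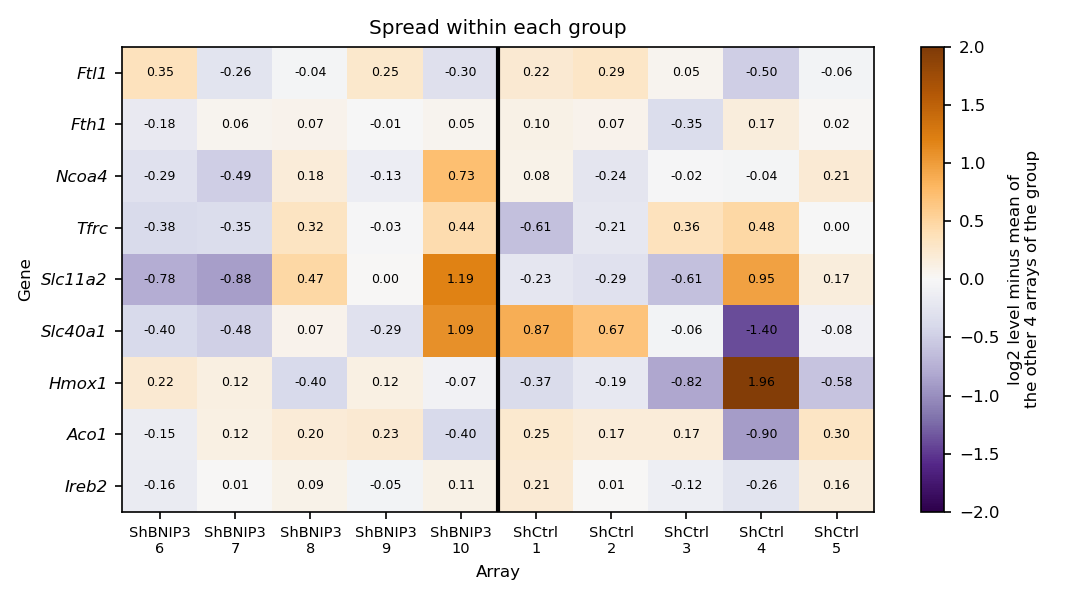
Log2 level of each gene (rows) on each array (columns, ShBNIP3 left, ShCtrl right) minus the mean of the other 4 arrays of its group. The largest values are on ShBNIP3 array 10, 1.19 for Slc11a2 and 1.09 for Slc40a1, and on ShCtrl array 4, 1.96 for Hmox1 and -1.40 for Slc40a1.

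Other genes of iron metabolism were taken from 10 lists by known role. They held 116 genes, of which 103 were measured, and 17 rose and 8 fell (24.3% passed, against 17.1% of all named genes). These lists too were chosen with earlier results of these data known, so nothing is read from the gap between those shares. The p-values given below for genes of the lists describe the fit over all probesets and are not independent evidence about iron metabolism. Their median log2 difference was 0.07, against 0.02 over all probesets. Among the genes not measured by a named probeset were Pcbp1 and Fbxl5, and no value is given for them.

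Genes of iron uptake and reduction had 4 of 14 up and 1 down, with a median log2 difference of 0.19. The siderophore-binding protein Lcn2, which is also an acute-phase protein, was at 15.87 to 17.51 in ShBNIP3 and 10.05 to 15.30 in ShCtrl (log2 difference 4.99, SE 0.77, limma adjusted p = 0.000829), with the highest ShCtrl value on array 4. The ZIP transporters Slc39a14 and Slc39a8, which can carry iron that is not bound to transferrin, rose 2.95-fold (limma adjusted p = 0.0326) and 2.76-fold (limma adjusted p = 0.0211). Both were high on ShCtrl array 4, at 15.10 and 12.01 against at most 13.07 and 10.60 on the other ShCtrl arrays, and without that array the log2 rises were 2.01 and 1.80 in place of 1.56 and 1.47. Mcoln1, a lysosomal channel that releases iron and other cations, rose 1.48-fold (limma adjusted p = 0.00991) and is named after its values were seen. Steap3, the endosomal ferrireductase that works beside Tfrc and Slc11a2, fell 1.93-fold (limma adjusted p = 0.00739), at 12.94 to 14.02 in ShBNIP3 and 14.45 to 14.96 in ShCtrl.

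Slc39a14 did not pass with a trended and robust variance (limma adjusted p = 0.0881), nor without ShBNIP3 array 8 (log2 difference 1.56), 9 (1.57) or 10 (1.27) or ShCtrl array 1 (1.41), 2 (1.41), 3 (1.50) or 5 (1.48). Slc39a8 did not pass without ShBNIP3 array 8 (1.36) or 9 (1.39) or ShCtrl array 1 (1.34), 2 (1.40) or 3 (1.34). The list's count was 3 of 14 without any 1 of ShBNIP3 arrays 8 and 9 and ShCtrl arrays 1, 2 and 3.

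Genes of iron export and of the hepcidin axis had 2 of 8 up and 0 down (limma; 3 and 0 at an unadjusted p under 0.05), with a median of 0.20. Ceruloplasmin (Cp), the ferroxidase that helps ferroportin to load iron onto transferrin, rose 2.62-fold (log2 1.39, SE 0.22, limma adjusted p = 0.00101), at 11.41 to 12.54 in ShBNIP3 and 10.22 to 11.03 in ShCtrl. Hfe, a class I-like protein that binds the transferrin receptor, rose 2.54-fold (log2 1.35, SE 0.20, limma adjusted p = 0.000651). Neither overlapped between the groups. Of the 8 genes, 5, including the hormone gene Hamp, were under background on every array.

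Among genes of ferritin loading, ferritin turnover and control of the regulatory proteins, 1 of 6 rose and 0 fell (limma; 3 and 0 at an unadjusted p under 0.05), with a median of 0.25. So 16.7% of this list passed, against 17.1% of all named genes. The ubiquitin ligase scaffold Cul1, part of the complex that targets IRP2, rose 1.38-fold (limma adjusted p = 0.0166), at 13.62 to 13.81 in ShBNIP3 and 13.10 to 13.54 in ShCtrl. Other transcripts known to hold an iron-responsive element had 0 of 4 up and 0 down (limma; 0 and 0 at an unadjusted p under 0.05 too), with a median of -0.07. Of these 4, 2 were under background on every array and only 1 was above it on every array, so this count says little about such transcripts.

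**Figure D4:**
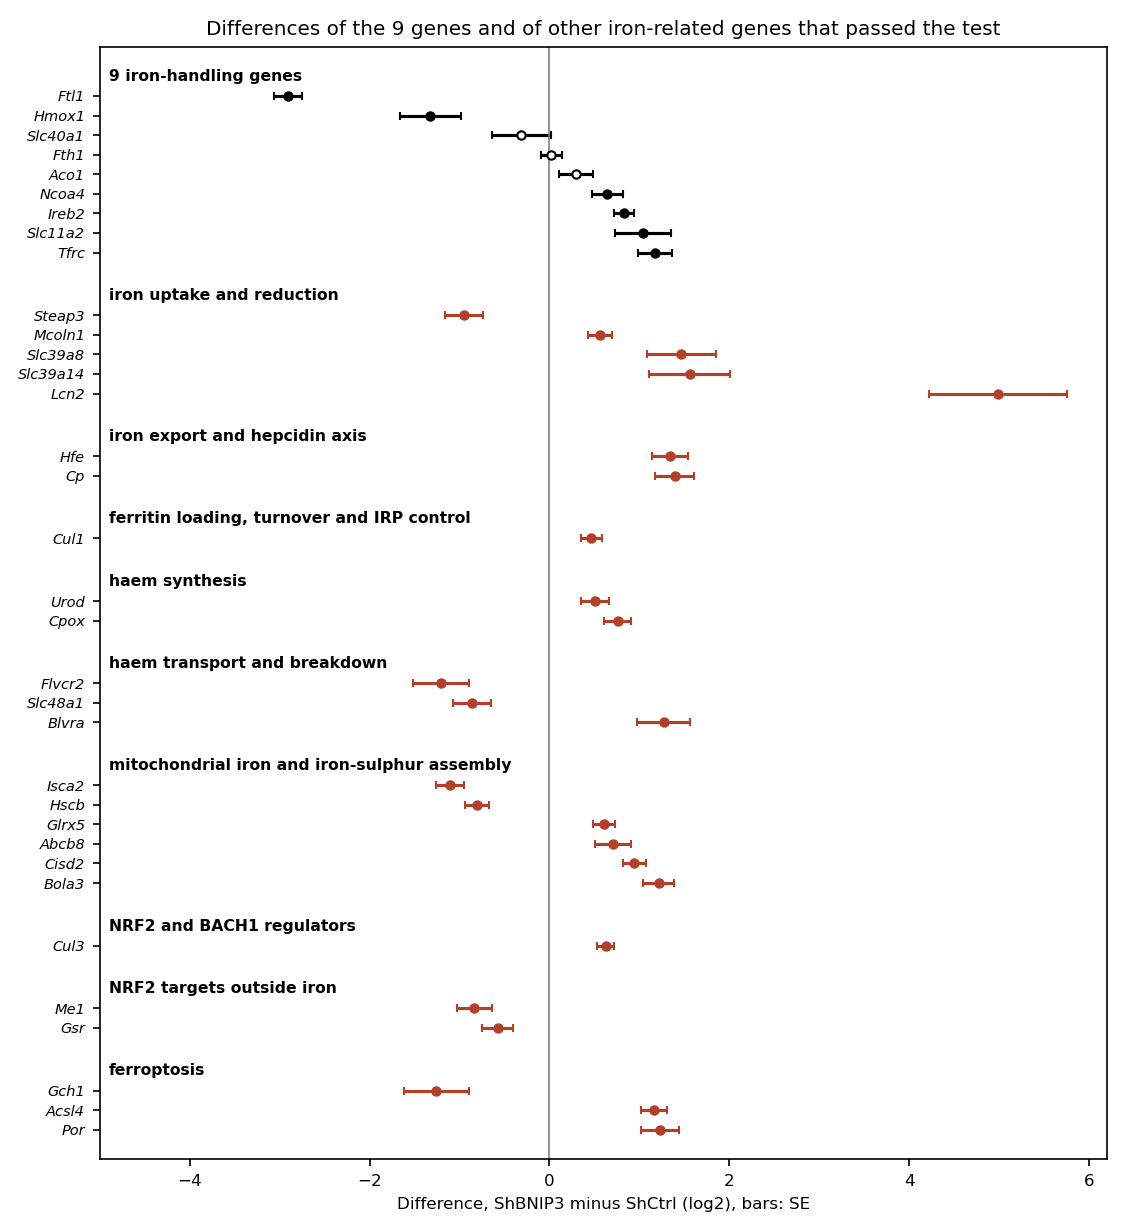
Log2 difference, ShBNIP3 minus ShCtrl, with its SE (x axis), for the 9 genes (black, open where the adjusted p was not under 0.05) and for the members of the other lists that passed (red), grouped by list. Ftl1 lies at -2.90 and Lcn2 at 4.99, and the other genes shown lie between -1.33 and 1.56.

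Haem synthesis genes had 2 of 8 up and 0 down (limma; 3 and 0 at an unadjusted p under 0.05), with a median of 0.12. Cpox, which makes protoporphyrinogen, rose 1.69-fold (limma adjusted p = 0.00421), at 10.07 to 10.55 in ShBNIP3 and 9.37 to 9.97 in ShCtrl. Urod, the decarboxylase one step before it, rose 1.42-fold (limma adjusted p = 0.0461). It passed in 2 of 10 fits with 1 array left out, those without ShBNIP3 array 10 or ShCtrl array 2, and elsewhere had log2 differences of 0.38 to 0.54, with 1 of 8 members passing. The first and last enzymes of the pathway, Alas1 and Fech, differed by 0.16 (SE 0.25, limma adjusted p = 0.764) and 0.060 (SE 0.14, limma adjusted p = 0.856).

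Genes of haem transport and breakdown had 1 of 11 up and 2 down, with a median of 0.09. The balance was 2 up and 1 down without ShBNIP3 array 8, and also where dim probesets, Flvcr2 among them, were left out. Blvra, the biliverdin reductase that follows haem oxygenase, rose 2.41-fold (limma adjusted p = 0.011), at 9.25 to 10.76 in ShBNIP3 and 8.04 to 9.43 in ShCtrl. Slc48a1, which moves haem out of the lysosome, fell 1.82-fold (limma adjusted p = 0.016), at 12.21 to 12.96 in ShBNIP3 and 12.62 to 13.81 in ShCtrl. Flvcr2 fell at levels around background, 0 of 5 ShBNIP3 arrays and 1 of 5 ShCtrl arrays being above it (limma adjusted p = 0.0185, and 0.0536 without ShBNIP3 array 8), so no size is given. Hmox2, the constitutive haem oxygenase, differed by 0.09 (SE 0.13, limma adjusted p = 0.726).

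Genes of mitochondrial iron import and iron-sulphur cluster assembly had 4 of 22 up and 2 down, with a median of 0.22. Bola3, which helps to hand clusters to respiratory and lipoate enzymes, rose 2.33-fold (limma adjusted p = 0.000453), at 13.96 to 14.58 in ShBNIP3 and 12.69 to 13.33 in ShCtrl. Cisd2, a cluster protein of the endoplasmic reticulum and mitochondria, rose 1.92-fold (limma adjusted p = 0.000339). Abcb8 and the glutaredoxin Glrx5, named after their values were seen, rose 1.63-fold (limma adjusted p = 0.0305) and 1.52-fold (limma adjusted p = 0.00452). Isca2, a late assembly factor, fell 2.15-fold (limma adjusted p = 0.000529), at 7.14 to 7.84 in ShBNIP3 and 8.42 to 8.95 in ShCtrl. The co-chaperone Hscb fell at levels under background on every array (limma adjusted p = 0.00138), so no fold is given. The scaffold Iscu differed by 0.27 (SE 0.11, limma adjusted p = 0.137). The importer Slc25a37 (mitoferrin 1) was at 9.34 to 10.88 in ShBNIP3 and 8.81 to 11.42 in ShCtrl, where 11.42 was array 4 and the next highest value 8.93. Over all arrays the difference was 0.52 (SE 0.47, limma adjusted p = 0.547). It was 1.03 when array 4 was left out (limma adjusted p = 0.0133) and 0.79 without arrays 4 and 10 (0.00259).

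Hmox1 and the ferritin chains are known targets of NRF2 (Nfe2l2) and its competitor BACH1. Of 7 regulators in this system 1 rose and 0 fell (limma; 1 and 2 at an unadjusted p under 0.05), with a median of -0.28. The share of regulators that passed was 14.3%, against 17.1% of all named genes. Cul3, the ubiquitin ligase scaffold that acts with Keap1, rose 1.54-fold (limma adjusted p = 0.000837), at 13.90 to 13.99 in ShBNIP3 and 13.29 to 13.42 in ShCtrl. The log2 difference of Nfe2l2 was -0.54 (SE 0.22, limma adjusted p = 0.124). With ShCtrl array 4 left out it was -0.74 (limma adjusted p = 0.00883), with arrays 4 and 10 left out -0.59 (0.00299), and with array weights over all 10 arrays -0.60 (0.0177). On that array Nfe2l2 was at 13.16, against 14.04 to 14.22 on the other ShCtrl arrays. The difference was -0.28 for Bach1 (SE 0.17, limma adjusted p = 0.31) and 0.015 for Keap1 (SE 0.21, limma adjusted p = 0.979), whose sign turned in 5 of 10 fits with 1 array left out. The count of regulators that passed was 2 without ShBNIP3 array 10, ShCtrl array 1 or ShCtrl array 4, and 3, of which 1 rose and 2 fell, without arrays 4 and 10 or with array weights.

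NRF2 targets outside iron handling had 0 of 10 up and 2 down (limma; 0 and 2 at an unadjusted p under 0.05 too), with a median of -0.31. The malic enzyme Me1 fell 1.78-fold (limma adjusted p = 0.0105). Glutathione reductase (Gsr) fell 1.49-fold (limma adjusted p = 0.0397), and passed in 2 of 10 fits with 1 array left out, those without ShBNIP3 array 10 or ShCtrl array 4. The count was 4 without ShCtrl array 4 and 1 in the fits without ShBNIP3 array 6, 7, 8 or 9 or ShCtrl array 1, 2, 3 or 5.

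Genes of ferroptosis, the death of cells by iron-dependent lipid peroxidation, had 2 of 14 up and 1 down, with a median of 0.19. In all, 21.4% of them passed, against 17.1% of all named genes. Acsl4, which loads membranes with oxidisable fatty acids, rose 2.24-fold (log2 1.16, SE 0.15, limma adjusted p = 0.000208), at 12.71 to 13.36 in ShBNIP3 and 11.61 to 12.07 in ShCtrl. Por, an oxidoreductase that feeds lipid peroxidation, rose 2.35-fold (limma adjusted p = 0.00189), at 13.21 to 14.01 in ShBNIP3 and 12.02 to 13.14 in ShCtrl. Gch1, which makes the antioxidant tetrahydrobiopterin, fell 2.39-fold (limma adjusted p = 0.0343), and did not pass without ShBNIP3 array 6 (log2 difference -1.12), 7 (-1.24), 8 (-1.20) or 9 (-1.27) or ShCtrl array 3 (-1.26) or 5 (-1.25). The peroxidase Gpx4, the main guard against this death, was at 14.78 to 14.93 in ShBNIP3 and 14.45 to 14.72 in ShCtrl, without overlap (difference 0.30, SE 0.11, limma adjusted p = 0.0791, but 0.0305 with a trended and robust variance and 0.03 with dim probesets left out).

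Macrophages and red cells handle much iron, and their markers were read beside these genes. Over all cell types 10 of 52 measured markers passed, 4 higher and 6 lower, where 17.1% of all named genes passed. Of 12 macrophage and leukocyte markers 3 rose and 0 fell, and 10 were under background on every array, among them Ptprc, Csf1r, Adgre1 and Cd163. The mean log2 level of this list lay between 5.01 and 5.29 in ShBNIP3 and 4.78 and 5.10 in ShCtrl. Cd68 and Cd14, which other cells also express, rose 2.83-fold (limma adjusted p = 0.00178) and 2.17-fold (limma adjusted p = 0.00703). The third, Cd53, rose without overlap at levels under background on every array (limma adjusted p = 0.0146), so no fold is given. Erythroid markers had 0 of 8 up and 0 down (limma; 1 and 0 at an unadjusted p under 0.05), with all 8, including the globin genes Hbb and Hba-a1, under background on every array. Of 10 nucleus pulposus markers 1 rose and 2 fell. Cdh2 rose (limma adjusted p = 0.000523), but was above background on 5 of 5 ShBNIP3 and 0 of 5 ShCtrl arrays, so no fold is given. Car3 fell 2.45-fold (limma adjusted p = 0.0048) and Col2a1 1.59-fold (limma adjusted p = 0.0133), both without overlap. The mean level of this list lay between 6.52 and 6.68 in ShBNIP3 and 6.77 and 7.42 in ShCtrl. The part of all these markers in the iron gene differences was not tested.

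The named genes whose values most resembled those of Ftl1 over the 10 arrays were Rps10 (Pearson r = 0.993), Dctn2 (0.990), Lipa (0.990), Pigs (0.989) and Arf3 (0.988). They encode a ribosomal protein, a dynactin subunit, the lysosomal acid lipase, a subunit of the enzyme that attaches lipid anchors to proteins, and a small GTPase. All 5 were lower in ShBNIP3 without overlap, and that gap enters r. Rps10 averaged 11.43 in ShBNIP3 and 14.04 in ShCtrl, a difference of -2.61, and the others differed by -2.38 to -1.61. The probesets of Rps10 and Arf3 are marked as unmapped in their identifiers, and whether they measure the main message of these genes was not tested. With 1 array left out, 3 of the 5 stayed among the 5 most alike without ShBNIP3 array 9, 2 without ShBNIP3 array 7 or 10 or ShCtrl array 1 or 5, and 1 without ShCtrl array 4. Without both array 10 and array 4 it was 0. By deviations from the group means, which leave that gap out, the most alike were Sc5d (r = 0.954), Trub2 (0.932), Pex3 (0.931), Fli1 (0.929) and Blvrb (0.926). Likeness of this kind says nothing of direction between the groups. Over the values themselves r was -0.802 for Sc5d, -0.402 for Trub2 and 0.27 to 0.552 for the other genes. Sc5d was higher in ShBNIP3 without overlap (log2 difference 0.50, limma adjusted p = 0.0136), opposite to Ftl1. Blvrb, a second biliverdin reductase and itself on the haem list, was at 8.58 to 9.41 in ShBNIP3 and 8.54 to 9.80 in ShCtrl, with its lowest values on arrays 10 and 4 as for Ftl1. With 10 arrays and 15037 genes such r values are a description only.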

How the data were processed

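RNA of 10 samples was labelled with the GeneChip WT Plus kit and hybridised to 1 array each, per the labels. The deposited values are on a log2 scale, 1 per probeset and array, and the authors normalized them by sst-rma, per the labels. Transcriptome Analysis Console is the program listed in the submitters' processing notes. The values were used as deposited. Groups came from the titles. Of 24834 probesets 1646 controls were left out, which leaves 23188, of which 15049 carry 1 symbol, 0 several and 8139 none. For a gene with several probesets the brightest was used.

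ShBNIP3 minus ShCtrl was fitted over all 23188 by limma (version 3.58.1 under R 4.3.3, functions lmFit and eBayes), and p-values were adjusted by Benjamini-Hochberg over the whole table, 0.05 being the threshold. The fit was also run on simulated arrays with known changes. The number of arrays limits the precision. A probeset was under background where it lay under the 95th percentile of the 23 background probesets. Genes named are the 9, Bnip3, up to 4 of each list with the largest differences among those that passed, a set of further genes where measured (Alas1, Fech, Iscu, Fbxl5, Pcbp1, Hmox2, Slc39a14, Slc25a37, Nfe2l2, Keap1, Bach1, Gpx4, Lcn2, and 1 that is not reported here), and the 5 genes most like Ftl1 by each measure. Also named, outside this rule, are Mcoln1, Abcb8, Glrx5, Hamp and markers of cell types. They are not among the 51 genes counted below, and their dependence on single arrays is not given. Members, lists and rules were chosen with earlier results of these data known. The alternatives were another variance model, array weights, quantile normalization, median centring, leaving out dim or identical probesets, another choice of probeset, and leaving out each array or arrays 4 and 10. The choice of probeset could not change the 9 genes, as each had 1 probeset.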

Additional observations from a re-analysis of the deposited data

Results flagged for a closer look

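Among 51 named genes, 17 values stood apart from the other 4 arrays of their group by Dixon's test at the 95% level, where chance gives about 1 in 20 of the 102 groups tested. Of these, 3 were on ShBNIP3 array 10 and 11 on ShCtrl array 4. The rate of 1 in 20 holds for independent groups. Here the genes share arrays, and 5 were named for following Ftl1 within the groups, so the count is a description only.

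On ShBNIP3 array 10, low values stood apart for Nfe2l2 (12.80, others 13.46 to 13.66), Urod (11.98, others 12.37 to 12.51) and Fech (9.64, others 10.01 to 10.06). On ShBNIP3 array 6 Cpox was low at 10.07, against 10.43 to 10.55.

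On ShCtrl array 4, Hmox1 was at 16.38 against 14.16 to 14.66 on the other ShCtrl arrays and Aco1 at 10.59 against 11.45 to 11.56. The same array had high values of Slc39a14 (15.10, others 12.72 to 13.07), Slc39a8 (12.01, others 10.14 to 10.60), Slc25a37 (11.42, others 8.81 to 8.93), Alas1 (12.28, others 11.23 to 11.38), Flvcr2 (7.75, others 6.14 to 6.59) and Cul1 (13.54, others 13.10 to 13.17). It had low values of Nfe2l2 (13.16, others 14.04 to 14.22), Me1 (10.55, others 11.18 to 11.35) and Sc5d (10.79, others 11.05 to 11.13).

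On ShCtrl array 3 Fth1 was low at 17.36, against 17.65 to 17.77, and on ShCtrl array 5 Cul3 was high at 13.42, against 13.29 to 13.31.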

How the results depend on the processing

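No paired analysis was possible because the replicate numbers of the titles run from 1 to 10 and the groups share none. Of the 51 named genes 32 kept direction and side of the threshold under every alternative run. Among them Ftl1, Tfrc, Ireb2 and Bnip3 passed throughout, and Aco1 passed in none. With 1 array left out the count of all probesets that passed ranged from 2746 to 3960, of the 9 genes from 3 to 6, of the uptake list from 3 to 5, of haem synthesis from 1 to 2, of haem transport from 3 to 4, of the mitochondrial list from 5 to 8, of NRF2 regulators from 1 to 2, of NRF2 targets from 1 to 4, of ferroptosis from 2 to 4 and of cell type markers from 9 to 11. The Bnip3 difference ranged from -3.53 to -2.87, and the number of Ftl1's 5 nearest genes kept from 1 to 5 (0 without arrays 4 and 10). The ferritin loading list had 2 calls in place of 1 with array weights, quantile normalization or dim probesets left out. The NRF2 regulators had 3 with array weights, 2 with dim probesets left out and 3 without arrays 4 and 10, where NRF2 targets had 4. Ferroptosis had 5 with dim probesets left out. With a trended and robust variance Slc11a2, Slc39a14 and Gch1 did not pass and Gpx4 did. Blvrb passed without ShCtrl array 4 (-0.58). Signs of genes that did not pass turned with 1 array left out for Fth1 (-0.048 to 0.057), Alas1 (-0.041 to 0.35), Fech (-0.042 to 0.14), Keap1 (-0.10 to 0.17) and Pex3 (-0.18 to 0.018). The cause of each shift was not tested. The value of Slc40a1 is limited by its signal at background.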

Other observations

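Markers of other cell types that a disc culture could hold were read on the same arrays. Of all 52 markers measured 10 passed, where 17.1% of named genes did, so these counts are not read as a change of cell type. Of 7 annulus fibrosus and fibroblast markers 0 rose and 3 fell, the collagen genes Col1a1 and Col1a2 by 0.40 and 0.37 on the log2 scale and Thy1 by 0.77. Of 8 skeletal muscle markers 1 fell, the intermediate filament gene Des, at a mean of 10.60 in ShBNIP3 and 13.13 in ShCtrl, while the other 7, among them Ckm, Mb and Acta1, were under background on every array. Of 7 endothelial markers 0 rose and 0 fell (limma; 0 and 0 also at an unadjusted p under 0.05), and all 7 were under background on every array.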
